A study of Mus musculus with 6 samples.

Results

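The uterus at the end of the first day after 1 injection of progesterone was described from 3 of the 6 arrays of a time course, those of 18 h, 24 h and the uninjected start. The 6 h array was used to tell what was already there early from what was not. All mice were ovariectomized wildtype 129/SvImJ females of 10 to 16 weeks, studied 14 days after removal of the ovaries, so all groups lacked ovarian hormones of their own. The 0 h mice had no injection. The other groups had 0.2 mg progesterone under the skin in 0.1 mL sesame oil and were killed 6, 12, 15, 18 or 24 h later. Each group was 1 Affymetrix array of RNA pooled from 8 uterine horns of 4 mice, so no group had replicates, and no mice given oil alone were analysed here. Hormone, oil, handling and time of day therefore cannot be told apart in a difference from 0 h. Of 12422 probe sets that were not array controls, 7731 were analysed, and 7687 of them had a value at 0, 18 and 24 h. Of these, 151 were at least 2-fold from the 0 h array in the same direction at both late times. These 151 probe sets are the part described.

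Progesterone acts through its receptor Pgr, a transcription factor of uterine epithelium, stroma and muscle. It opposes the growth of the epithelium that estrogen drives, and it prepares the stroma for the changes that let an embryo implant. The uterus is layered, with a lining and glands of epithelium, a collagen-rich stroma and a wall of smooth muscle, and RNA of the whole organ mixes all of them.

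Values are log2 expression, on which 1 unit is 2-fold, and differences are from the 0 h array. Values below 6.60, the 40th percentile of the table, were set to that floor, so a difference from a floored value is a lower limit on its size. The arrays had medians of 7.12 to 7.22, with 7361 to 7557 of their probe sets above this floor. Markers of uterine stroma (12 genes), smooth muscle (10 genes) and epithelium (13 genes) were all among the genes analysed. Their summed linear levels at 0, 18 and 24 h were 13391, 13190 and 13598 for stroma, 22822, 30553 and 29360 for smooth muscle, and 11042, 8201 and 9377 for epithelium. In RNA of a whole organ, fewer cells of a type and less RNA per cell cannot be told apart.

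At the end of the first day 61 probe sets were at least 2-fold higher at both times (0.794% of those compared) and 90 were at least 2-fold lower (1.17%). By the smaller of the differences at both times, Acot7, Npl and Lrp2 led the higher side and Clca1, Tgfbi and Inmt the lower side among probe sets with a name. Counted with 1 probe set for each of 5891 genes, 48 genes were higher (0.815%) and 71 lower (1.21%). The median difference over all analysed probe sets was -0.04 at 18 h and 0.00 at 24 h. The size at both times is a description of 2 arrays against 1. The test was limma on all 6 arrays, with the spread taken from the pairs of 12 and 15 h and of 18 and 24 h, and with the lone 0 h array assumed to vary alike. At an adjusted p under 0.05 this test called 237 of 7718 probe sets that rose (3.07%) and 303 that fell (3.93%), among them 57 of the 61 higher and 79 of the 90 lower ones. Those 61 and 90 probe sets had been chosen by size on the same arrays, so this overlap is partly built in. "Rose" and "fell" are used only for genes that limma called. The p-values measure the spread between neighbouring times, not between mice. Without any 1 of the 12, 15, 18 or 24 h arrays the count called was 0, so each call needs all of these arrays. Just inside the 2-fold limit lay Vcl (1.01) and Acss1 (-1.0002), and just outside lay Sh3bgr (0.99) and Mxi1 (-0.9998), by the smaller of the differences at both times.

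**Figure D1:**
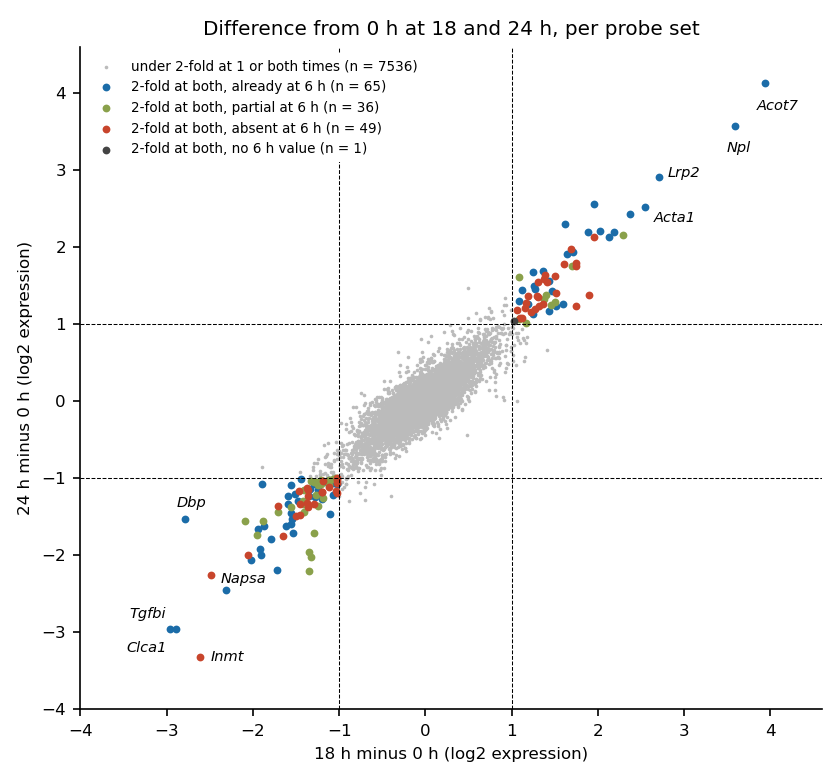
Difference from 0 h at 18 h (horizontal axis, log2) and at 24 h (vertical axis, log2), 1 point per probe set with values at 0, 18 and 24 h (1 array each), with dashed lines at 2-fold and colours by the 6 h value. The 61 probe sets at upper right and the 90 at lower left are past 2-fold at both times, with Acot7 at 3.94 and 4.13 and Inmt at -2.61 and -3.32.

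The 6 h array divided these probe sets. Of the 61 higher probe sets, 26 were already 2-fold higher at 6 h, 9 were between 1.5-fold and 2-fold, 25 were under 1.5-fold and so counted as absent at 6 h, and Pdk3, a kinase that restrains pyruvate dehydrogenase, had no 6 h value. Of the 90 lower ones, 39 were already 2-fold lower, 27 were partly so and 24 were absent. Those absent at 6 h made up 0.325% (higher) and 0.312% (lower) of the 7682 probe sets with values at all 4 times. They held 20 and 21 named genes. From 6 h to the mean of 18 and 24 h the median change was 1.20 for the absent higher probe sets. For the absent lower ones it was -1.07. For those already present it was -0.07 and -0.12. Many of the absent probe sets were past 2-fold by the middle of the day. Among the higher ones 16, 4 and 5 were first 2-fold from 0 h at 12, 15 and 18 h, and among the lower ones 12, 7 and 5. Both late arrays were also 2-fold from the 6 h array for 15 of the 25 higher and 13 of the 24 lower ones.

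The change from 6 h has a test of its own, in which the 0 h array drops out. In limma's contrast of 18 and 24 h with 6 h, 0 of 7720 probe sets passed (0%), with a smallest adjusted p of 0.0526 and 2063 at an unadjusted p under 0.05. All 25 and all 24 absent probe sets were at an unadjusted p under 0.05. Their adjusted p ran from 0.0526 to 0.154 and from 0.0526 to 0.0967, but they were chosen on the same arrays. That they were absent at 6 h is therefore a description of size. The scaling moved this count, since after quantile normalization 54 rose and 94 fell from 6 h.

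**Figure D2:**
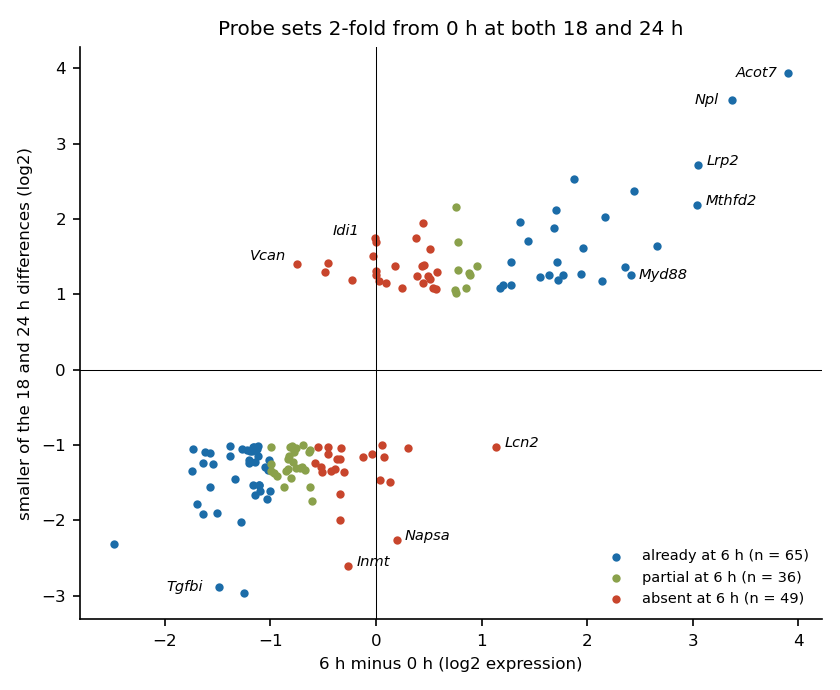
Difference from 0 h at 6 h (horizontal axis, log2) against the smaller of the 18 and 24 h differences (vertical axis, log2) for the 150 probe sets that were 2-fold at both late times and had a 6 h value, coloured by class. Acot7 and Lrp2 lie at upper right, while Idi1, at -0.01, and Vcan, at -0.74, were not above 0 h at 6 h, and Lcn2 was higher at 6 h (1.14) and lower later.

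Genes of cholesterol synthesis were among those absent at 6 h. The pathway builds cholesterol from acetyl units by way of mevalonate, farnesyl diphosphate and squalene, and its genes are commonly driven by the SREBP transcription factors when cells are short of sterol. Of 12 analysed genes of the list, 4 were 2-fold higher at both times (Idi1, Fdps, Sqle and Msmo1), 0 were lower, and 1 (Fdps) passed limma. The median over the 12 was -0.10, 0.50, 0.79, 0.74 and 0.61 at 6, 12, 15, 18 and 24 h. The sequence before the start of Idi1 and Hmgcs1, the early enzymes of the pathway shown here, is printed to let the promoter letters be seen beside these values. Each run is the 250 bases before the gene's start in RefSeq on GRCm38.p6, plus strand, at chr13:8885356-8885605 for Idi1 and chr13:119690101-119690350 for Hmgcs1. Capitals mark TCACNCCAC, a form of the sterol regulatory element, and GCCAAT, the box bound by NF-Y, which reads ATTGGC where it lies on the other strand.
Idi1: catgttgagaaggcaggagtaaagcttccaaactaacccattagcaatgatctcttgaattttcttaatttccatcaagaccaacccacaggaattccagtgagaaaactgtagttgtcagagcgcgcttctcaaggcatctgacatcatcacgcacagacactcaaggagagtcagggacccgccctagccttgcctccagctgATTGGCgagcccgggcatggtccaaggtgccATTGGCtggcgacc
Hmgcs1: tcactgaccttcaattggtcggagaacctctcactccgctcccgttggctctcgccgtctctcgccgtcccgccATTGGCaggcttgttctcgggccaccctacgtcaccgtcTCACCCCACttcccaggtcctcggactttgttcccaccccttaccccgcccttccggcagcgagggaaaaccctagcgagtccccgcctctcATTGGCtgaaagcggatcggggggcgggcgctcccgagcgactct
The Hmgcs1 run holds 1 sterol element, whose first base is at -137 from the start, and TCACNCCAC was not found in the Idi1 window. Over promoters of 250 bases before and 50 after the start, searched on both strands, TCACNCCAC was in 1 of the 9 list genes with a promoter in the table and in 1.44% of 27025 genes. GCCAAT, a motif added after the data were seen, was in 7 of the 9 and in 16.7% of all genes. The genes with it included Idi1, Hmgcs1 and Msmo1, and also Mvk and Ebp, which did not share the higher values (below). These matches describe letters and no binding was measured.

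Idi1 (isopentenyl diphosphate isomerase) had levels of 6.61, 6.60, 8.06, 8.85, 8.36 and 8.37 at 0, 6, 12, 15, 18 and 24 h. It lay at the floor at 6 h and next to it at 0 h, and the 4 later arrays were all higher. The differences were 1.74 at 18 h and 1.75 at 24 h, or 3.37-fold at 24 h, with an adjusted p of 0.0523 in limma, just outside the threshold. Fdps, the synthase of farnesyl diphosphate, had 7.68, 7.23 and 8.82 up to 12 h, no value at 15 h, and then 9.10 and 9.23. It rose by 1.48 ± 0.13 (SE, adjusted p = 0.0252, with the 15 h array missing from its fit), and its other probe set gave 1.30 and 1.37. Sqle, squalene epoxidase, had 7.46, 7.92, 8.91, 9.56, 9.35 and 8.85, and Msmo1, a sterol oxidase, had 7.12, 7.50, 8.37, 9.14, 8.86 and 8.36. Both were highest at 15 h and came down after it, with differences of 1.89 and 1.38 for Sqle and 1.75 and 1.24 for Msmo1 (adjusted p = 0.0634 and 0.0885). Hmgcs1, which makes the precursor of mevalonate, followed the same course at 7.50, 7.14, 8.40, 8.88, 8.65 and 8.07 without being 2-fold at both times. Cyp51, which demethylates lanosterol, was at the floor at 0 and 6 h and gave at least 0.99 and 0.66 late. Others of the list did not share this. Mvk (mevalonate kinase) differed by 0.06 and 0.11, and Ebp, a sterol isomerase, by -0.29 and -0.12. Abca1, which exports cholesterol from cells, was lower at -1.71 and -1.44 and had been -0.80 at 6 h (adjusted p = 0.0807).

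**Figure D3:**
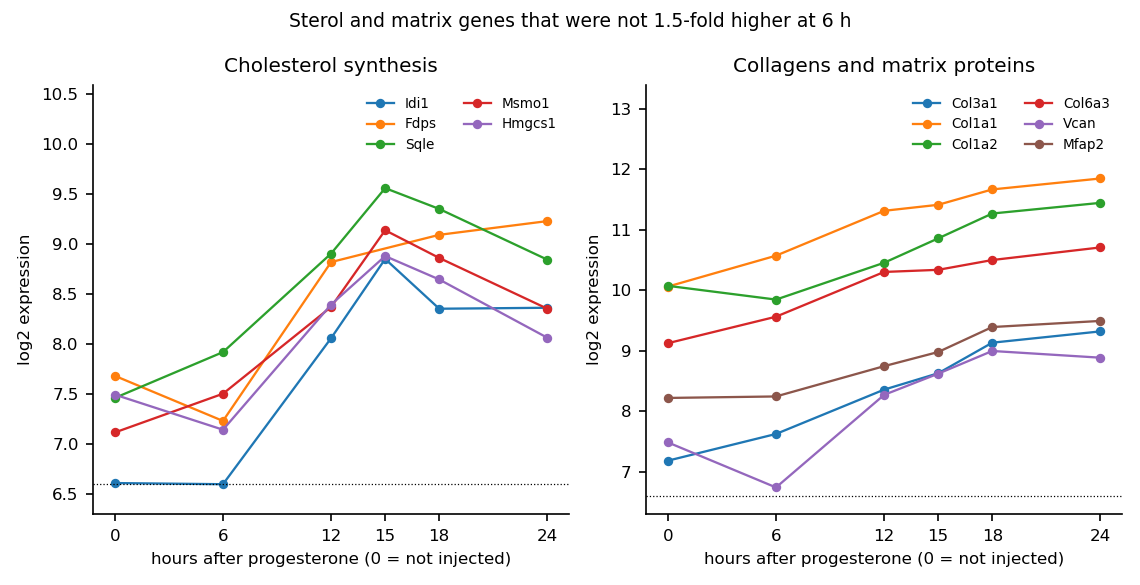
Log2 expression by hours after progesterone for 5 genes of cholesterol synthesis (left) and 6 genes of the matrix (right), 1 array per time, with the dotted line at the floor of 6.60. At 6 h each gene was less than 1.5-fold above its 0 h value, Fdps has no value at 15 h, and the sterol genes other than Fdps peak at 15 h while the collagens are highest at 24 h.

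Most collagen genes rose. Collagens are the rope and mesh proteins of connective tissue, made in the uterus mainly by stromal fibroblasts and muscle cells. Of 15 analysed collagen genes 13 had values at all times compared, and 5 of these were 2-fold higher at both times, with 0 lower. By limma 12 of the 15 rose and 0 fell. The list's median difference was 0.25, 1.004 and 0.88 at 6, 18 and 24 h, beside -0.06, -0.04 and 0.00 over all named genes. Col3a1, a fibrillar collagen of soft tissue, had 3 probe sets that were all 2-fold higher. The one with the largest difference had 7.18, 7.62, 8.36, 8.63, 9.13 and 9.32 at 0, 6, 12, 15, 18 and 24 h. The 0 and 6 h arrays were low, and each later array was higher than the one before. It rose by 2.04 ± 0.16 (SE, adjusted p = 0.0159), or 4.40-fold at 24 h, and the lowest of its other probe sets gave 1.12 and 1.08. Col1a1, a chain of type I collagen, had 10.06, 10.57, 11.31, 11.41, 11.67 and 11.85, with differences of 1.61 and 1.79, and its other probe set gave 1.30 and 1.55. Col1a2, the partner chain, was slightly below 0 h at 6 h (-0.23) and 1.20 and 1.37 higher at 18 and 24 h, but a second, dimmer probe set gave -0.18 and -0.06. Col6a3, a chain of type VI collagen, differed by 1.37 and 1.58 and by 0.44 at 6 h. Col6a2, another chain of type VI, was partly higher at 6 h (0.77) and reached 1.70 and 1.75.

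The basement membrane collagens moved less. Col4a1 gave 0.88 at both times and Col4a2 gave 1.004 and 0.87, and both rose by limma (adjusted p = 0.0252 and 0.0259). Col5a2, a fibrillar collagen that joins type I fibrils, had 1.53 at 18 h and no value at 24 h. Col14a1, a collagen at fibril surfaces, was below 0 h at 6 h (-0.31) and gave 0.63 and 0.77 later.

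Of 12 genes that fold and finish collagen 9 lay above 0 h at both late times and 1 below it, 0 were 2-fold higher and 1 was 2-fold lower, and by limma 2 rose and 1 fell. The list's median was 0.33 at 18 h and 0.44 at 24 h. Serpinh1, the collagen chaperone of the endoplasmic reticulum, rose, with 1.003 and 0.96. Crtap, part of the complex that hydroxylates collagen prolines, rose too, with 0.79 and 0.76. Sparc, a secreted collagen-binding protein, gave 0.88 and 1.17, and Pcolce, which speeds the trimming of procollagen, gave 0.59 and 0.83, and neither passed (adjusted p = 0.0691 and 0.0522). Lox, the enzyme that crosslinks collagen and elastin, was the 1 below 0 h. Its levels were 8.42, 7.59, 7.13, 6.97, 7.01 and 7.26, already low at 6 h, and it fell by 1.41 and 1.15 at 18 and 24 h (adjusted p = 0.0259). Its other probe set, which lay at the floor at 12, 15 and 18 h, also fell.

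Other matrix proteins divided as well. Vcan, the large proteoglycan versican, had 7.48, 6.74, 8.27, 8.62, 8.996 and 8.88, so it was lower than 0 h at 6 h and higher on every later array. It rose by 1.46 ± 0.18 (SE, adjusted p = 0.0259). Mfap2, a microfibril protein, was level at 6 h (0.02) and rose, with 1.17 and 1.27. Bgn, the small proteoglycan biglycan, rose with 0.76 and 0.81, while its other probe set gave -0.05 and 0.37. Tgfbi, a secreted matrix protein, went from 11.65 to 10.17, 9.23, 8.74, 8.76 and 8.69 and fell by 2.89 and 2.96. Sparcl1, a relative of Sparc, and Fbln1, a fibulin, fell by smaller amounts (-0.64 and -0.76 for Sparcl1, -0.59 and -0.66 for Fbln1). Over the 20 genes of matrix glycoproteins and proteoglycans 2 were 2-fold higher and 1 lower, 3 rose and 4 fell, and the median was -0.25 and -0.17. The summed smooth muscle markers were higher on the same arrays (above), with 3 of 11 rising by limma, Cnn1, Des and Mylk. Among 12 stroma markers Mest, Hoxa11 and Hand2 rose, and the stroma sum was level. The part of either tissue in the collagen values was not tested.

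Among other genes that were higher late and absent at 6 h, Aqp4, a water channel, had 7.19, 7.57, 8.61, 9.08, 8.94 and 8.98. It rose by 1.77 ± 0.21 (SE, adjusted p = 0.0259), but its other probe set, near the floor, gave 0.17 and 0.27. Kdelr3, a receptor that returns chaperones to the endoplasmic reticulum, was at 7.25 and 7.22 at 0 and 6 h and at 8.75 and 8.87 at 18 and 24 h. Rcn1, a calcium-binding protein of the same organelle and also absent at 6 h by this limit, differed by 0.57 at 6 h and by 1.07 and 1.19 later. Fkbp11, a prolyl isomerase there, was outside the class, being partly higher at 6 h (at least 0.88), and gave at least 1.504 and 1.28. These 3 rose by limma. The list of endoplasmic reticulum chaperones had a median of 0.20, 0.92, 0.30 and 0.34 at 6, 12, 18 and 24 h. Of its 20 genes 0 were 2-fold higher at both late times, and Ddit3, a transcription factor of the stress response, was 2-fold lower.

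Tnni2 and Dmpk, best known from skeletal muscle, were in the class too. Tnni2, the troponin I of fast skeletal muscle, lay at the floor on the 0 and 6 h arrays and at 7.98, 8.21, 8.29 and 8.57 afterwards, a rise of at least 1.69 and 1.97. Dmpk, a kinase of muscle, had 8.77, 8.95, 9.32, 9.56, 10.15 and 10.40 and rose, with differences of 1.38 and 1.64. Acta1, skeletal alpha-actin, was already higher at 6 h, at 9.16 and 11.04, and reached 11.71 and 11.69. Of 10 analysed skeletal muscle markers these 2, Acta1 and Tnni2, were 2-fold higher. Ckm, the muscle creatine kinase, was at the floor at 0 and 6 h and at 6.67 and 6.68 late. Mylpf, a fast myosin light chain, was at 6.79 at 0 h and at the floor at 18 and 24 h. The list's median was 0.06 and 0.18.

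The remaining named genes of the class were Nme4, Bzw2, Uqcc2, Pfn2 and Tmem147. Bzw2, Uqcc2 and Tmem147 were already above 0 h at 6 h, by 0.50, 0.51 and 0.54, close to the 1.5-fold limit. Nme4, a mitochondrial nucleoside diphosphate kinase, was at the floor at 0 and 6 h and gave at least 1.36 and 1.26 late. Uqcc2, an assembly factor of respiratory complex III, gave 1.27 and 1.20, and Pfn2, an actin-binding profilin, 1.15 and 1.22. All 5 rose by limma. Nme1, the cytosolic relative of Nme4, was partly higher at 6 h (0.96) and rose too by 1 probe set, with 1.40 and 1.38, while its other probe set gave -0.45 at both times without passing (adjusted p = 0.0895).

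What was high at 6 h and still high at the end of the day was led by Acot7, an acyl-CoA thioesterase, at 7.09, 10.996, 11.26, 11.43, 11.03 and 11.22. The 0 h array alone was low, and the difference at 24 h was 17.5-fold (4.04 ± 0.13 on the log2 scale over 18 and 24 h, SE, adjusted p = 0.00447). Npl, a lyase of sialic acid, was at the floor at 0 h and at least 3.59 and 3.58 higher. Lrp2, the endocytic receptor megalin, had 2.71 and 2.91, and Pla2g10, a secreted phospholipase, 2.37 and 2.43. Some early genes had come part of the way back. Mthfd2, a mitochondrial folate enzyme, was 3.04 at 6 h and 2.19 and 2.20 late. Slc2a3, a glucose transporter, was 2.36 at 6 h and 1.36 and 1.69 late. Myd88, an adaptor of Toll-like receptors, went from 2.41 to 1.253 and 1.68, and Atp1b1, a sodium pump subunit, from 2.14 to 1.43 and 1.17. Acod1, the itaconate-making enzyme, was at the floor at 0 h and at least 1.36 higher at 6 h and 1.95 and 2.57 higher late, and its contrast with 6 h did not pass (adjusted p = 0.122). Igf1, a growth factor, gave 1.96 early and 1.61 and 2.30 late, so the 6 h value lay between the late ones. The other probe set of Igf1 gave 0.09 and 0.12, that of Gstm2, a glutathione transferase at 2.13 and 2.13, gave 0.24 and 0.05, and that of Sec23b, a vesicle coat protein at 2.02 and 2.21, gave 0.00 and 0.13. Of 24 genes at 2-fold with several probe sets, 15 had another one under 1.5-fold.

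The genes lower at the end of the day and absent at 6 h were led by Inmt, an enzyme that methylates indole amines. Its levels were 10.45, 10.19, 8.71, 7.90, 7.84 and 7.13. It was level at 6 h and lower on each later array, 9.99-fold at 24 h, and it fell by 2.97 ± 0.44 (SE, adjusted p = 0.0344). Napsa, an aspartic protease of epithelia, had 9.57, 9.77, 8.04, 7.95, 7.08 and 7.31 and fell by 2.38 ± 0.14 (SE, adjusted p = 0.0109). Aldh1a1, which makes retinoic acid, declined from 9.46 and 9.12 to 8.74, 8.23, 7.80 and 7.71 and fell by 1.65 and 1.75 (adjusted p = 0.0285). Ctsf, a lysosomal cysteine protease, was at 8.81 and 8.30 at 0 and 6 h, at the floor at 15 h, and at 7.10 and 7.46 late. Klk1b1, a kallikrein with many close relatives that a probe set may not tell apart, was at 8.19, 8.23, 7.61, 6.86, 6.73 and 6.71 and missed the threshold (adjusted p = 0.0651). The retinoid list did not follow Aldh1a1. Aldh1a2, another enzyme of the same step, rose with 0.66 and 0.61, and Stra6, a receptor for vitamin A uptake, with 0.65 and 0.58, and the median over 16 genes was -0.16 and -0.10.

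**Figure D4:**
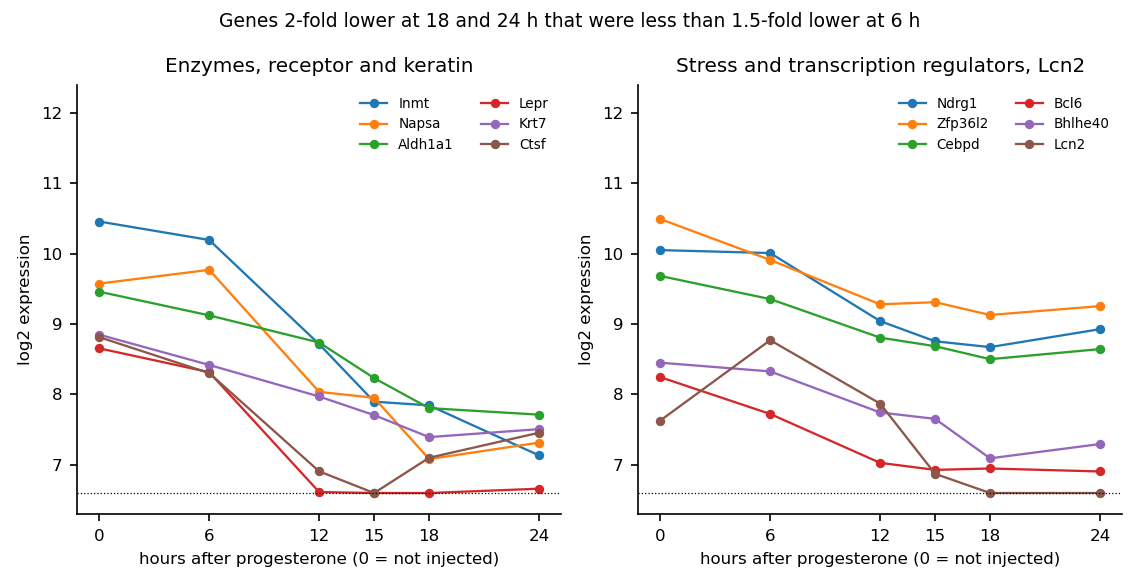
Log2 expression by hours after progesterone for 12 genes that were at least 2-fold lower than 0 h at both 18 and 24 h and less than 1.5-fold lower at 6 h, 1 array per time, with the dotted line at the floor of 6.60. Inmt goes from 10.45 to 7.13, Lepr lies at or next to the floor from 12 h on, and Lcn2 is at 8.77 at 6 h and at the floor at 18 and 24 h.

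Lepr, the leptin receptor, dropped early in this class. It was at 8.65 and 8.31 at 0 and 6 h and at 6.61, 6.60, 6.60 and 6.66 from 12 h on, and it fell by at least 2.05 at 18 h and 1.99 at 24 h (adjusted p = 0.00688). The floor narrowed the spread behind this p. With a floor at the 60th percentile the smaller of the late Lepr differences was -0.95, under 2-fold. Lifr, the receptor of leukemia inhibitory factor, which the uterus needs for implantation, was already lower at 6 h (-1.33) and stayed at -1.56 and -1.45. Over 14 genes of this cytokine family 2 were 2-fold lower, 3 fell, and the median was -0.17 and -0.03. The insulin-like growth factor list held genes of both directions. Igf1 was higher (above), while Igfbp3, which binds the growth factor, fell by 1.61 and 1.62. The other probe set of Igfbp3 fell by 2.03 and 2.07. Irs2, an adaptor of the growth factor's receptor, fell by at least 1.29 and by 1.08, and Igf1r, the receptor itself, by 0.999 and 1.24. Igf1r was -0.23 at 6 h and lay just outside the 2-fold limit at 18 h.

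Zfp36l2, Bcl6 and Cebpd were past 2-fold lower late and under 1.5-fold lower at 6 h, by -0.58, -0.52 and -0.33, with Zfp36l2 at the edge of that limit. Zfp36l2, a protein that destabilizes messenger RNA, was at 10.49, 9.91, 9.28, 9.31, 9.13 and 9.25. Bcl6, a transcriptional repressor, was at 8.24, 7.72, 7.03, 6.93, 6.95 and 6.91, and Cebpd, a transcription factor of the stress response, at 9.68, 9.35, 8.81, 8.68, 8.50 and 8.64. All 3 fell, Zfp36l2 by 1.36 and 1.24, Bcl6 by 1.30 and 1.34 and Cebpd by 1.18 and 1.04, although another probe set of Zfp36l2 gave -0.33 and -0.25. Ndrg1, a gene induced by low oxygen and stress, fell with each of its probe sets, the first by 1.38 and 1.12. Gadd45b, a stress-response gene, reached the floor from 12 h on. Map3k1, a kinase, Tns2, a focal adhesion protein, and Reln, the secreted protein reelin, fell too. So did Hspa2, a heat shock protein, and Prnp, the prion protein. The other probe set of Gadd45b was lower by at least 0.41 at both late times and fell as well. It lay at the floor from 12 h on, so those arrays had no spread. That of Reln, at the floor at both late times, gave 0.00. Tns2 had been slightly higher at 6 h (0.30). Among immediate-early genes as a list, 1 of 21 was 2-fold lower, Ccn2, a matricellular protein, and the median was 0.17, -0.23 and -0.10 at 6, 18 and 24 h.

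Part of the clock list was lower late. The circadian clock is a loop in which Bmal1 and Clock drive genes, among them Per and Cry, whose products shut the loop down, and Dbp, Tef and Nr1d2 are direct outputs. Of 17 analysed genes 2 were 2-fold lower at both times (Dbp and Bhlhe40), 0 were higher, and 4 fell by limma (Bhlhe40, Rora, Per1 and Per2). In smaller amounts, 12 of the 17 lay below 0 h at both late times and 4 above it, Nfil3, Arntl (the gene of Bmal1), Clock and Csnk1d, of which Nfil3 had the largest difference, 0.26 and 0.31, and none of the 4 passed. The list's median was -0.12, -0.52 and -0.47 at 6, 18 and 24 h. Dbp had 9.39, 8.23, 6.60, 6.76, 6.60 and 7.86, at the floor at 12 and 18 h and back by 1.26 at 24 h. Nr1d2, a repressor of the loop, had 9.71, 9.17, 8.06, 8.05, 7.82 and 8.85 and was back by 1.04 at 24 h. With Dbp and Nr1d2 the 18 and 24 h arrays themselves were over 2-fold apart, and neither passed limma (adjusted p = 0.0797 and 0.124). Bhlhe40, a repressor of clock genes, had 8.45, 8.33, 7.74, 7.65, 7.09 and 7.29 and fell by 1.36 and 1.15. Per2 lay at the floor from 12 h on, which left limma no spread of its own between those arrays. Per1 and Per2 were above 0 h at 6 h (0.36 and 0.79) and fell. The smaller of their late differences was -0.64 for Per1 and -0.43 for Per2, the latter a limit. Their contrast with 6 h was -1.02 and -1.22 (adjusted p = 0.0526 for both). CACGTG, the E-box that the clock proteins bind, was in promoters of 3 of 14 list genes with one in the table (Per1, Cry1 and Tef), beside 8.09% of all genes. No source used here states at what hour the mice were killed, and time of day cannot be told apart from time after injection.

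Several genes of the epithelium and its secretions were lower at the end of the day. Clca1, a secreted protein of mucous epithelia, had 9.56, 8.32, 7.30 and then the floor at 15, 18 and 24 h, a difference of at least 2.96 on the log2 scale that passed limma (adjusted p = 0.0205). Ltf, the estrogen-induced protein lactoferrin, fell by 1.87 and 1.62 and was -1.002 at 6 h. Lcn2, an iron-siderophore carrier, was higher at 6 h (8.77 beside 7.63 at 0 h) and at the floor at 18 and 24 h, and its difference did not pass (adjusted p = 0.19). Krt7, a keratin of simple epithelia, had 8.85, 8.42, 7.97, 7.71, 7.39 and 7.51 and fell by 1.45 and 1.34, the only keratin absent at 6 h among the genes at 2-fold. Krt18 fell by 1.21 and 1.03 and had been -0.82 at 6 h. Krt8, its usual partner, differed by -0.43 and -0.26 and Krt19 by -0.77 and -0.39, and neither passed. Epcam, an adhesion molecule of epithelia, fell by 1.19 and 1.27. Lamb3 and Lama3, laminin chains of the basement membrane, fell as well, Lamb3 by 1.54 and 1.53. So did Itgb4, an integrin subunit of the hemidesmosome that ties epithelium to that membrane. Of 24 genes of laminins and junctions 3 were 2-fold lower, 7 fell and 0 rose, and the median was -0.30 and -0.24. Cldn3, a tight junction protein, went the other way without passing (0.26 and 0.47). Over 13 epithelial markers 4 were 2-fold lower and 3 fell, the median was -0.43 at 6, 18 and 24 h alike, and their summed level was lower at 18 and 24 h (above). The part of a smaller share of epithelial RNA in these values was not tested.

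Of 18 estrogen-induced genes 3 were 2-fold lower (Clca1, Ltf and Lcn2), 1 was 2-fold higher (Igf1), and by limma 4 fell and 1 rose. Pigr, the carrier of secreted antibodies, and Wfdc2, a secreted protein of epithelia, were the others that fell, Pigr by 0.90 and 0.88. The receptors of estrogen and progesterone did not pass the test. Esr1, the estrogen receptor, gave -0.58 and -0.52 after -0.66 at 6 h (adjusted p = 0.0557), while its 3 other probe sets lay between -0.32 and 0.40. Pgr gave -0.36 and -0.31 (adjusted p = 0.312).

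As a list, the known progesterone targets were further from 0 h at 6 h than at the end of the day. The list was chosen with earlier results of these data known, so this course is a description and no test. The median over 34 genes was 0.76, 0.60, 0.44, 0.31 and 0.38 at 6, 12, 15, 18 and 24 h. At both late times 4 were 2-fold higher, Lrp2, Pla2g10, Acod1 and Hdc, the enzyme that makes histamine, and 1 was 2-fold lower, Lifr. By limma 6 rose and 5 fell. Ihh, the hedgehog signal that epithelium sends to stroma, was 1.42 at 6 h and 0.34 and 0.51 late. Zbtb16, a transcription factor, was 2.09 at 6 h and 0.61 and 0.90 late, and Fkbp5, a chaperone of steroid receptors, 1.53, then 0.33 and 0.86. Fst, which binds activin, was at least 1.65 early and 0.49 and 1.47 late, the 18 and 24 h arrays differing by 0.97. Cebpb and Per1 were above 0 h at 6 h and fell, Cebpb, a transcription factor of stromal differentiation, by 0.97 and 1.14 after 0.37.

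Single genes of blood vessels, nerve, immune response and fat were lower too. Cldn5, a tight junction protein of endothelium, fell by 1.47 and 1.29, while the median of 10 endothelial markers was -0.08 and 0.02. Ncam1, an adhesion molecule, fell by 1.54 and 1.71. Mbp, a myelin protein, fell by 1.51 and 1.20, with another probe set at -0.23 and -0.23. Of 7 nerve and glia markers these 2 fell by limma and 2 rose, and the median was -0.18 at both times. Of 19 interferon-stimulated genes 1 was 2-fold lower, Ifit1, and 3 fell, and the median went from -0.62 at 6 h to -0.41 and -0.27. Of 9 chemokine genes 3 fell, Cxcl12, Cxcl14 and Cx3cl1, and 0 rose. The other probe sets of Cxcl12 gave -0.36 and -0.51, and -0.23 and -0.23, without passing. That of Cx3cl1, near the floor, gave -0.08 at both times and did not pass either. Adipoq, the fat cell hormone adiponectin, had 9.41, 8.38, 8.45, 6.89, 7.70 and 7.22. Scd1, a fatty acid desaturase, and Car3, a carbonic anhydrase of fat and muscle, had the same low point at 15 h, at 9.61 and 8.71 beside 11.41 and 11.10 at 0 h. None of these 3 passed limma (adjusted p = 0.145, 0.106 and 0.201). The summed level of 7 fat cell markers was 4504, 2950 and 2531 at 0, 6 and 15 h, and 2780 and 2936 late. How much fat was on the pooled horns was not measured, and its part in these values was not tested.

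Lists of cell division and of oxidative phosphorylation had late medians under 1.5-fold from 0 h. Over all 5891 genes 0.815% were 2-fold higher at both times and 1.21% lower. By limma 3.07% of all probe sets rose and 3.93% fell. Counts as small as those below, 0 among them, are no result about the lists. Of 24 genes of the G1/S transition and 13 of mitosis, 0 were 2-fold at both times in either direction, with medians of 0.05 and 0.05, and of 0.15 and 0.23. By limma 1 of the former fell, Cdkn1c, an inhibitor of cyclin-dependent kinases, by 0.87 and 0.78. Genes of oxidative phosphorylation were slightly higher, with a median over 31 genes of -0.07, 0.22 and 0.38 at 6, 18 and 24 h, and 24 of the 31 lay above 0 h at both late times. Of the 31 genes 3 rose, Cs (citrate synthase), Cycs (cytochrome c) and Cox6a1, and 1 fell, Cox4i1, whose other probe set gave 0.03 and 0.11. The 28 proteasome genes had medians of 0.20 and 0.30, and 2 rose. Of 19 glycolysis genes 1 was 2-fold higher, Slc2a3 (above), and 1 was 2-fold lower, Aldoc. Aldoc lay at the floor at 18 and 24 h, at least 1.79 below 0 h. The polyamine enzyme Srm rose with 1.59 and 1.26. Odc1, which starts the pathway, lay at the floor on the uninjected 0 h array and rose by at least 1.07 and 0.84.

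**Figure D5:**
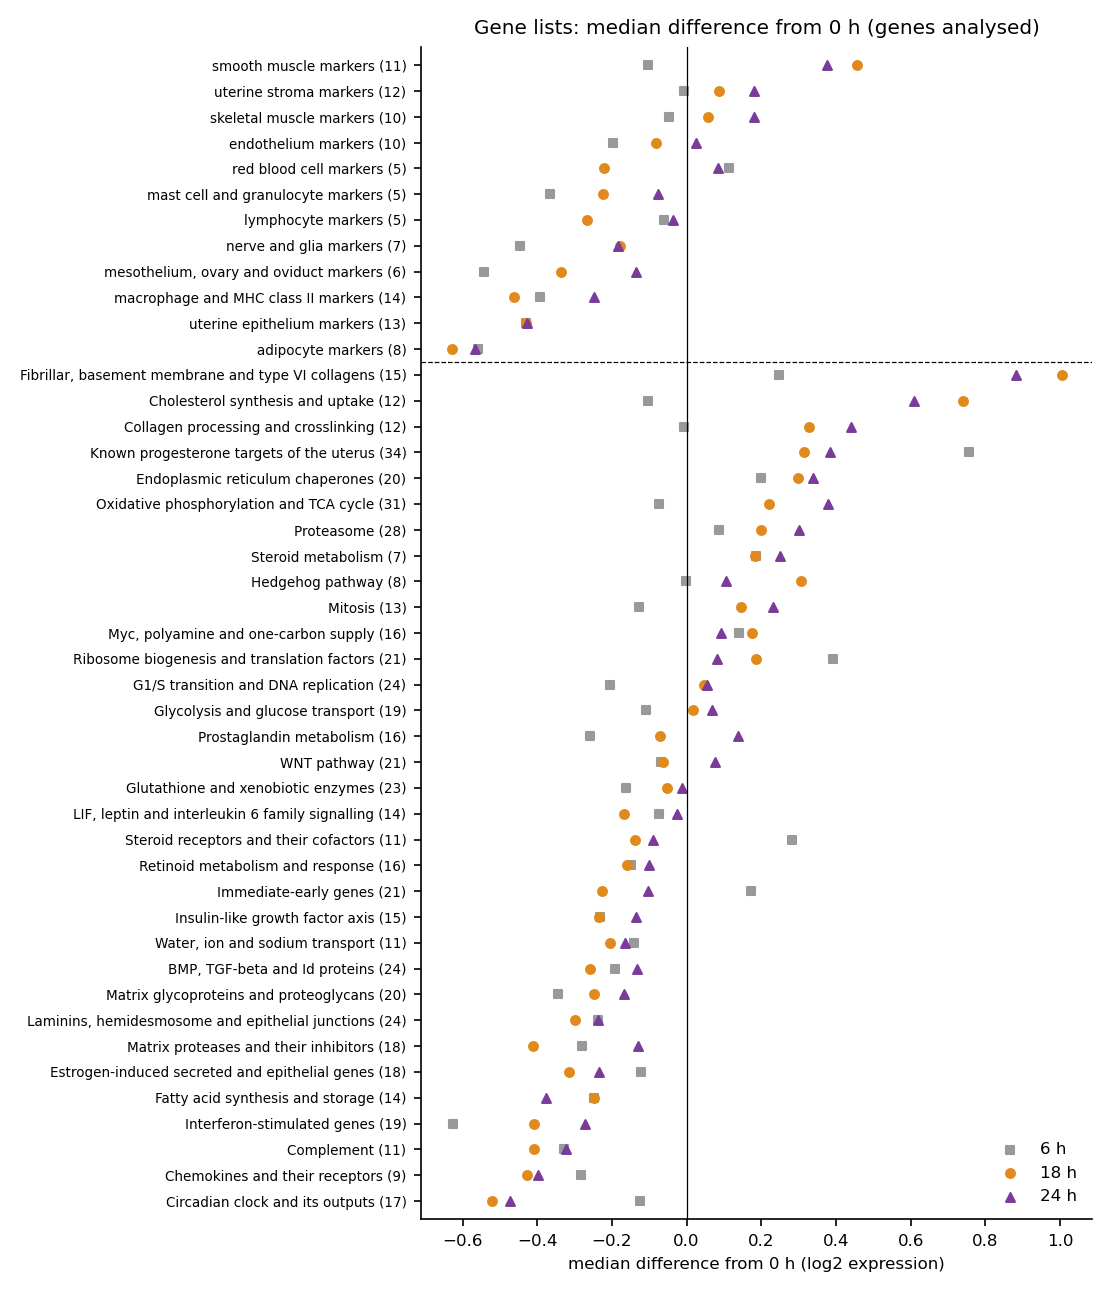
Median log2 difference from 0 h at 6 h (squares), 18 h (circles) and 24 h (triangles) for 12 lists of cell type markers (above the dashed line) and 33 lists of pathways (below), with the number of genes analysed in brackets, 1 array per time. Collagens (1.004 and 0.88) and cholesterol synthesis (0.74 and 0.61) lie to the right of their 6 h values, the progesterone targets (0.31 and 0.38) to the left of theirs (0.76), and the clock list lies at -0.52 and -0.47.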

How the data were processed

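Each of 6 Affymetrix arrays held pooled uterus RNA of 1 time, and the sample titles gave the groups. The authors deposited 1 table of log2 values, 1 per probe set and array. Per the labels, RNA, labelling and hybridization followed the array maker's advice. No source used here names the software, background correction or scaling behind these values. The 2% trimmed means were -4.11% to 3.47% from their median, under the 5% allowed, so values were used as deposited.

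The table held 12487 probe sets, and 65 controls were left out. 121 values were missing and stayed so, and 49 analysed probe sets had under 2 residual degrees of freedom. Values below the 40th percentile (6.60, which is 96.9 unlogged) were raised to it, which compresses differences of weak genes and narrows their spread. Analysed were probe sets above that floor on at least 2 arrays. Of those that were not controls, 10833 had 1 gene symbol in the platform annotation, 396 several and 1193 none, and only those with 1 symbol were named. 10817 of them matched RefSeq gene identifiers, which changed 0 symbols.

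Differences were counted at 2-fold at both late times, and as absent at 6 h under 1.5-fold. limma 3.58.1 in R 4.3.3 (lmFit, eBayes with trend) was fitted in 4 levels, 0 h, 6 h, 12 and 15 h, and 18 and 24 h, with 2 residual degrees of freedom and Benjamini-Hochberg adjustment over all probe sets tested. The fit was tested on simulated data with the same spread on all arrays. That test cannot check whether the lone 0 h and 6 h arrays vary like the later ones. Gene lists, 33 of pathways and 12 of cell types, took the probe set with the highest mean per gene. Named were, by rule, the genes with the largest differences from 0 h and from 6 h and between 18 and 24 h, the genes absent at 6 h, Pgr and Esr1, and in each list the members at 2-fold and up to 3 others. The members and the lists were chosen with earlier results of these data known. Abca1, Arntl, Bzw2, Car3, Cebpd, Ckm, Cldn3, Clock, Col5a2, Cox6a1, Csnk1d, Ebp, Fbln1, Fkbp5, Krt8, Map3k1, Mvk, Myd88, Ndrg1, Nfil3, Nme1, Pcolce, Pfn2, Prnp, Rcn1, Tmem147, Uqcc2 and Zbtb16 are outside this rule and were chosen after their values were seen. Alternatives were other floors, scalings, filters and fold limits and leaving out each array.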

Additional observations from a re-analysis of the deposited data

Results flagged for a closer look

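Lcn2 and Vcan lay on opposite sides of the 0 h array at 6 h and at the end of the day. Lcn2 differed from 0 h by 1.14 at 6 h and by -1.03 at both 18 and 24 h, where it was at the floor, so the late difference is a limit. Vcan differed by -0.74 at 6 h and by 1.51 and 1.40 at 18 and 24 h. In limma's contrast with 6 h neither passed, with an adjusted p of 0.0697 for Lcn2 and 0.0526 for Vcan, and each time is 1 array.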

How the results depend on the processing

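The count of probe sets 2-fold lower at both times was 90, or 50 under a floor at the 60th percentile. At 1.5-fold 235 were higher and 317 lower, and at 3-fold 20 and 16. Leaving out 18 or 24 h gave 82 to 88 higher and 107 to 139 lower. Probe sets absent at 6 h numbered 25 higher and 24 lower. For these the floor at the 20th percentile gave 38 and 37, the floor at the 60th percentile 12 lower, and no floor 38 higher. A stricter limit at 6 h gave 13 and 11, while a limit of 2-fold there gave 51 lower. Leaving out 18 or 24 h gave 39 to 40 higher and 35 to 46 lower.

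limma's calls against 0 h, 237 that rose and 303 that fell, became 552 and 599 with no floor and 34 that rose beside 218 that fell with no filter on expression. They became 0 and 0 on the 0, 18 and 24 h arrays alone (1650 at an unadjusted p under 0.05), and 0 and 0 without the 12, 15, 18 or 24 h array, where 1652, 1658, 1669 and 1917 were at an unadjusted p under 0.05 and the smallest adjusted p was 0.133 to 0.171. Against 6 h, with 0 and 0, the calls were 107 and 133 under a floor at the 20th percentile, 567 and 471 with no floor, 54 and 94 after quantile normalization, 16 and 40 after median centring, and 9 and 105 with no filter. They stayed at 0 and 0 when 12, 15, 18 or 24 h was left out, with 1595, 1594, 1809 and 1601 at an unadjusted p under 0.05. The cause was not tested, apart from fewer arrays or fewer residual degrees of freedom where arrays were left out. No paired analysis was possible because each group has 1 array.

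Of 54 named probe sets at 2-fold, 54 remained so under a floor at the 20th percentile, and 53 after quantile normalization and after median centring. Under a floor at the 60th percentile 36 of 48 did, and 0 changed direction under these 4 settings. With 1 array per group, signal near the floor and the spread between mice, which was not measured, limit every value.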
